A study of Rattus norvegicus with 6 samples.

Results

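Cd68, Aif1, Itgam and Ptprc are genes used to mark white blood cells in tissue, the first 3 of them mainly macrophages and related myeloid cells. These 4 genes were taken by their Ensembl identifiers from a table of 23487 genes measured in rat kidney, and all 4 were among the 13644 genes with enough counts to be tested. The identifiers are ENSRNOG00000037563 for Cd68, ENSRNOG00000000853 for Aif1, ENSRNOG00000019728 for Itgam and ENSRNOG00000000655 for Ptprc. The name of one of them is not settled, since the study's own annotation pairs ENSRNOG00000019728 with the rat symbol Itgad and with the human gene ITGAM. Itgad encodes a sister integrin chain and lies close to Itgam on chromosome 1 in the rat assembly GRCr8, so reads of these related genes could be divided or merged by transcript-level estimation. In what follows, Itgam means the row of this identifier.

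Kidney RNA of 6 rats was sequenced, 3 labelled SNx and 3 labelled NoOp. The study kept part of each kidney for histology, and the region that gave the RNA is not given in the sources used here. SNx stands for sub-total nephrectomy, in which part of one kidney is cut away and the other kidney is later removed, so that a small remnant carries the function and scars over time, and it serves as a model of chronic kidney disease. The study used male Wistar Han rats, and SNx animals were killed once serum creatinine or proteinuria had passed a preset limit, so the time after surgery differed between animals. NoOp rats had no operation by their label and the study's methods, though a figure legend of the study calls these 3 controls sham. Taking the label as it stands, the effect of surgery as such and the loss of kidney tissue cannot be told apart in this comparison. The age of the animals is not given in the sources used here. The question for these genes was whether the markers of leukocytes differed in the remnant kidney, by how much, and whether they changed by like amounts.

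As background, resident macrophages sit around the tubules and glomeruli of a healthy kidney, and monocytes, T cells and other leukocytes enter when the tissue is injured or scars. Ptprc encodes CD45, a tyrosine phosphatase on the surface of all nucleated blood cells, which activates kinases of the Src family by removing an inhibitory phosphate. Aif1 encodes IBA1, a calcium-binding protein that bundles actin in macrophages and microglia. Cd68 encodes a heavily glycosylated protein of the lysosome membrane, related to the LAMP proteins and abundant in phagocytes. Itgam encodes CD11b, the integrin chain that pairs with CD18 to form complement receptor 3 on monocytes, macrophages, neutrophils and natural killer cells.

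Because these genes are active in blood cells of related lineages, the starts of the genes are shown with the matches to the PU box, the letters GAGGAA bound by PU.1, a transcription factor of myeloid cells. The RefSeq promoter table (build GRCr8, 250 bases before to 50 bases after the start) matched 3 of the 4 genes by symbol, and Aif1 was not matched. The Itgam window belongs to the RefSeq gene of that symbol. Each window is written 5′ to 3′ along the gene, and capitals mark GAGGAA, or TTCCTC where the match is on the other strand. The windows lie at chr10:54882392-54882691 on the minus strand for Cd68, at chr1:192089342-192089641 on the plus strand for Itgam and at chr13:52259697-52259996 on the minus strand for Ptprc.
Cd68: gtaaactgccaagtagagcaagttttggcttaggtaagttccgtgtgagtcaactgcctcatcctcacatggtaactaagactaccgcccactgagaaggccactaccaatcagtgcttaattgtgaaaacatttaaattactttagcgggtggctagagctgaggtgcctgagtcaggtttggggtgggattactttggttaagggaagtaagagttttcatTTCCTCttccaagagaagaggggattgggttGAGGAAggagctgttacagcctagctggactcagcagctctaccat
Itgam: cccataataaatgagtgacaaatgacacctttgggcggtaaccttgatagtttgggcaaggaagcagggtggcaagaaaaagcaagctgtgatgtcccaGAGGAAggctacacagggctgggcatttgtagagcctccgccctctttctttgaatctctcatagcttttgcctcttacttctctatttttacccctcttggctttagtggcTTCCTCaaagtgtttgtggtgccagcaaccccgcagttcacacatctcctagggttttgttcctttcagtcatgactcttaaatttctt
Ptprc: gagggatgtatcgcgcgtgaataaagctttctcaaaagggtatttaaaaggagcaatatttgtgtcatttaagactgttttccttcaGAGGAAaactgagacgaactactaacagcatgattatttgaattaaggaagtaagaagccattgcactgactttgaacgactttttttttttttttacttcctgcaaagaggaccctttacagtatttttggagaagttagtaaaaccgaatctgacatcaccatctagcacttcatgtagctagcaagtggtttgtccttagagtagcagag
The Cd68 window held 2 matches, starting at bases 224 and 255 of the window, and the Itgam window held 2, starting at bases 100 and 212. The Ptprc window held 1 match, starting at base 88. At least 1 match was present in 27.6% and at least 2 in 4.83% of all 33469 promoter windows of this length, so a single match is common. The Cd68 match at base 255 lies after the start of the gene. Whether these genes, chosen as markers of blood cells, hold more matches than others was not tested. The matches are a description of letters, and binding was not measured.

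All 4 marker genes were higher in SNx than in NoOp kidneys. Itgam rose 16.9-fold, Cd68 10.6-fold, Ptprc 4.83-fold and Aif1 3.71-fold. Each passed the test of limma on voom-transformed counts at an adjusted p under 0.05, as did 19.2% of all genes tested in this direction. For each of the 4 genes every SNx library lay above every NoOp library, which was the case for 27.1% of all genes tested. The genes were chosen with results of these data known, so the count of 4 of 4 is a description. In bulk tissue, more cells of a type and more RNA per cell cannot be told apart.

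The libraries summed to between 9572955 and 13140864 estimated counts, every SNx library being smaller than every NoOp library. Levels are given as CPM, the counts relative to a library size set to a common scale, after scaling with the trimmed mean of M-values (TMM), whose factors ran from 0.884 to 1.21 and were higher in SNx. Pairs of libraries of one group differed by at least 7.92 times counting error (chi-square per degree of freedom), so no library appeared to be deposited more than once. SNx replicate 3 was the SNx library nearest to NoOp for each of the 4 genes, and each fold change is also given without it. Fold changes are those fitted by limma on log2 values, and they need not equal the ratio of the mean CPM. Whether the deposited counts had been scaled by transcript length was not settled, and if so they are not plain read counts and the comparisons with counting error are approximate. The kidney label was not checked against kidney marker genes, because the reference table used here matched none of the identifiers to symbols.

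For Ptprc, the marker shared by all leukocytes, the NoOp libraries in the order of replicates 1, 2 and 3 held 61, 130 and 75 counts, and the SNx libraries in that order held 377, 601 and 289. Scaled, these were 5.93, 10.3 and 7.203 CPM in NoOp and 36.3, 46.4 and 30.5 CPM in SNx. The groups did not overlap, SNx replicate 2 was the highest library, and the lowest SNx library stood 2.97 times above the highest NoOp library. The mean was 7.81 ± 2.24 CPM in NoOp and 37.8 ± 8.05 CPM in SNx (SD, n = 3 each). The log2 fold change came to 2.27 ± 0.26 (SE; 95% interval 1.65 to 2.89, or 3.15-fold to 7.41-fold; limma adjusted p 0.00229). Without SNx replicate 3 it was 2.40.

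Counts of Aif1 were 110, 97 and 93 for the NoOp animals in replicate order, against 395, 443 and 265 for the SNx animals. These corresponded to 10.7, 7.67 and 8.93 CPM in NoOp and to 38.03, 34.2 and 28.0 CPM in SNx. Aif1 was the most even of the 4 genes in SNx, where its lowest library reached 73.6% of its highest, and the lowest SNx library was 2.62 times the highest NoOp library. The means were 9.10 ± 1.52 and 33.4 ± 5.07 CPM (SD, n = 3 each). The fitted log2 fold change was 1.89 ± 0.20 (SE; 95% interval 1.43 to 2.35, or 2.70-fold to 5.10-fold; limma adjusted p 0.00176). It was the smallest rise of the 4 genes and had the smallest p-value, and without SNx replicate 3 it came to 1.997.

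Cd68 had few counts in NoOp, where 19, 27 and 29 counts were found in replicate order, whereas the SNx animals gave 383, 327 and 134. The levels were 1.85, 2.14 and 2.78 CPM in NoOp and 36.9, 25.3 and 14.2 CPM in SNx. All SNx libraries were above all NoOp libraries, but they were spread widely, with SNx replicate 3 at 38.4% of SNx replicate 1. The lowest SNx library was still 5.08 times the highest NoOp library. The mean rose from 2.26 ± 0.48 to 25.4 ± 11.4 CPM (SD, n = 3 each). The fitted log2 fold change was 3.40 ± 0.57 (SE; 95% interval 2.07 to 4.74, or 4.19-fold to 26.7-fold; limma adjusted p 0.00532). Without SNx replicate 3 the log2 fold change was 3.73.

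Itgam showed the largest rise and the largest spread of the 4 genes. Here 13, 9 and 10 counts were found in the NoOp animals in replicate order, and 348, 170 and 99 in the SNx animals. Scaling gave 1.26, 0.712 and 0.960 CPM in NoOp and 33.5, 13.1 and 10.5 CPM in SNx. SNx replicate 1 stood far above the other SNx libraries, which reached 39.2% and 31.2% of it, and the lowest SNx library was 8.27 times the highest NoOp library. The means were 0.979 ± 0.276 and 19.03 ± 12.6 CPM (SD, n = 3 each). The log2 fold change was 4.08 ± 0.85 (SE; 95% interval 2.11 to 6.05, or 4.30-fold to 66.3-fold; limma adjusted p 0.00998). It was 3.598 without SNx replicate 1 and 4.37 without SNx replicate 3. Its standard error was the largest of the 4.

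**Figure D1:**
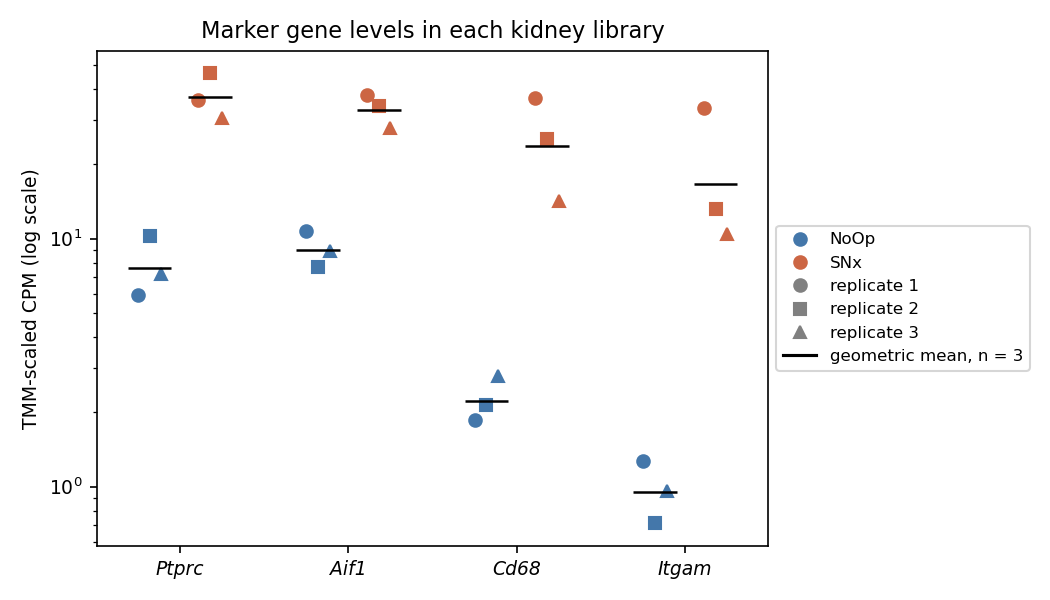
TMM-scaled CPM (log axis) of Ptprc, Aif1, Cd68 and Itgam in each of the 3 NoOp (blue) and 3 SNx (orange) libraries, with the shape giving the replicate, which pairs no animals, and the bar the geometric mean. For each gene all SNx libraries lie above all NoOp libraries, and the SNx libraries of Cd68 (14.2 to 36.9 CPM) and Itgam (10.5 to 33.5 CPM) are spread more widely than those of Aif1 (28.0 to 38.03 CPM) and Ptprc (30.5 to 46.4 CPM).

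The 4 rises can be placed among all genes tested, as a description. The log2 fold change of Itgam was above that of 99.1% of the 13644 genes, that of Cd68 above 98.5%, that of Ptprc above 95.8% and that of Aif1 above 93.8%. By p-value the order was different, with Aif1 at rank 128, Ptprc at 223, Cd68 at 1123 and Itgam at 2138. Thus the genes with the larger rises were the less precisely measured ones. The median log2 fold change was 0.01 over all genes and 1.27 over the 2620 genes called higher, and each of the 4 genes lay above both.

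**Figure D2:**
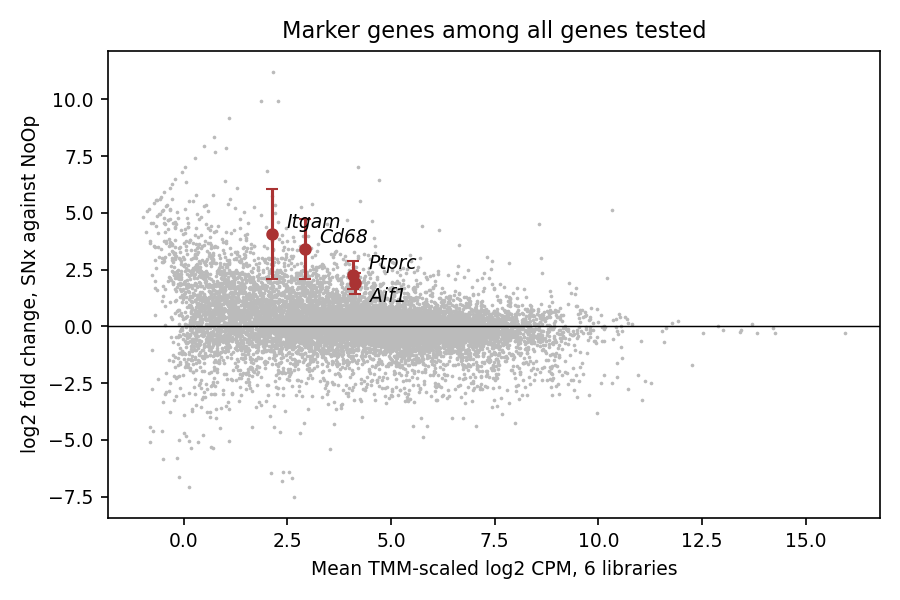
Log2 fold change of SNx against NoOp (vertical axis) against mean TMM-scaled log2 CPM over 6 libraries (horizontal axis) for all 13644 genes tested (grey) and the 4 marker genes (red, bars giving the 95% interval). The marker genes lie along the upper part of the cloud, with wider intervals for Itgam and Cd68 at lower mean levels than for Ptprc and Aif1.

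The spread between animals was compared with counting error, which is the spread that libraries would show if they differed only by chance in sampling reads. The index used is the chi-square of the counts per degree of freedom after scaling, and it is near 1 when counting error accounts for the spread. In NoOp it was 0.90 for Itgam and 1.07 for Cd68, so at these depths no difference between NoOp animals was detectable for these genes. It was 2.88 for Aif1 and 7.31 for Ptprc in NoOp. In SNx it was 7.52 for Aif1, 19.0 for Ptprc, 49.7 for Cd68 and 88.2 for Itgam. On the log2 scale the SD over the 3 SNx libraries was 0.22 for Aif1, 0.30 for Ptprc, 0.69 for Cd68 and 0.89 for Itgam, and the corresponding NoOp values were 0.24, 0.40, 0.29 and 0.40. The index grows with the number of counts for a like relative spread, and Itgam had 32 counts in NoOp against 617 in SNx. The index is therefore no measure for comparing spread between genes or groups. For Aif1 and Ptprc it was higher in SNx while the log2 SD was lower. The difference in spread between genes or groups was not tested.

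The order of the SNx animals was not the same for every gene. SNx replicate 1 was the highest library for Cd68, Aif1 and Itgam, while SNx replicate 2 was the highest for Ptprc. SNx replicate 3 was the lowest SNx library for all 4 genes. Relative to the NoOp mean, SNx replicate 1 stood at 34.2-fold for Itgam, 16.3-fold for Cd68, 4.65-fold for Ptprc and 4.18-fold for Aif1. SNx replicate 2 stood at 13.4-fold, 11.2-fold, 5.95-fold and 3.76-fold in the same order of genes, and SNx replicate 3 at 10.7-fold, 6.27-fold, 3.91-fold and 3.08-fold. The 3 animals are set against the same NoOp mean of each gene, so their like order of genes is partly shared by construction.

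Whether the genes rose by unequal amounts was examined with the log2 ratio of their counts (each with 0.5 added) within a library, a measure that does not depend on how libraries are scaled. The ratio is used for its change between groups, and its size says nothing on the levels of the genes, since no lengths were used here. With 3 libraries in each group the exact two-sided permutation test cannot go below 0.1, so no pair could reach the threshold. Of the 6 pairs, 4 had no overlap between the groups, each with an exact permutation p of 0.1 and 0.15 after Benjamini-Hochberg adjustment over the 6 pairs. The ratio also did not overlap for 54.4% of all pairs of genes tested and for 54.0% of the pairs among genes called higher, so the count of 4 of 6 is near the background and is no result about these markers.

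The largest shift was that of Itgam against Aif1. The log2 ratio of Aif1 over Itgam was 3.03, 3.36 and 3.15 over the NoOp animals in replicate order, and 0.18, 1.38 and 1.42 over the SNx animals. The NoOp libraries were closely alike and the SNx libraries were all lower, a difference of -2.19 with a standard error of 0.42. The NoOp ratios rest on 13, 9 and 10 counts of Itgam. At so few counts such closeness can arise by chance, and this standard error may be too small. The ratio of Itgam over Ptprc rose by 1.78 with a standard error of 0.70, from -2.19, -3.78 and -2.85 in NoOp to -0.12, -1.82 and -1.54 in SNx.

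Cd68 also shifted against Aif1 and against Ptprc. Its log2 ratio to Aif1 was -2.50, -1.83 and -1.66 in NoOp and -0.04, -0.44 and -0.98 in SNx, a difference of 1.51 with a standard error of 0.37. Its log2 ratio to Ptprc was -1.66, -2.25 and -1.36 in NoOp and 0.02, -0.88 and -1.11 in SNx. Here the difference was 1.10 ± 0.43 (SE), and the groups were separated by a narrow gap between NoOp replicate 3 and SNx replicate 3.

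The other 2 pairs overlapped between the groups. The log2 ratio of Aif1 over Ptprc was 0.85, -0.42 and 0.31 in NoOp and 0.07, -0.44 and -0.12 in SNx, so it differed by -0.41 with a standard error of 0.40 (exact permutation p 0.4, adjusted 0.4), within the spread between libraries. The log2 ratio of Cd68 over Itgam was 0.53, 1.53 and 1.49 in NoOp and 0.14, 0.94 and 0.43 in SNx, a difference of -0.68 with a standard error of 0.40 (exact permutation p 0.2, adjusted 0.24). Neither result shows that the genes of a pair rose by the same amount.

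**Figure D3:**
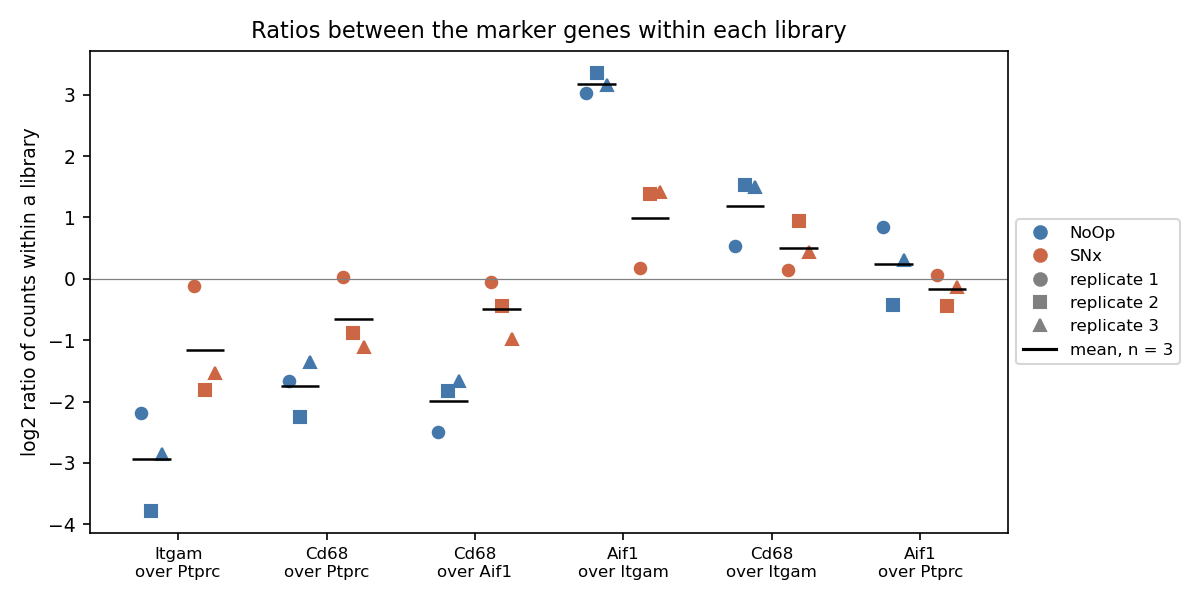
Log2 ratio of the counts of 2 marker genes within each library (vertical axis) for the 6 pairs, in NoOp (blue) and SNx (orange), with shapes for replicates and bars for the mean of 3 libraries. The groups are apart for the 4 pairs on the left, which set Itgam or Cd68 against Ptprc or Aif1, and overlap for Cd68 over Itgam and Aif1 over Ptprc.

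Likeness of pattern was measured as the root mean square difference between genes over the 6 libraries in log2 CPM, after each gene was centred on its own mean. For each marker, the other markers were placed among 12491 other genes whose mean log2 CPM was 1 or more. The gene pairs were closest between Aif1 and Ptprc, at 0.44, and between Cd68 and Itgam, at 0.48. The distance takes in the size of the rise, so it is not separate from the fold changes above. The median distance to the other genes was 0.98 from Aif1, 1.19 from Ptprc, 1.72 from Cd68 and 2.03 from Itgam. Numbers of nearer genes are therefore not comparable between markers. Seen from Itgam, 11 genes lay nearer than Cd68, 307 nearer than Ptprc and 353 nearer than Aif1. Seen from Cd68, 60 genes lay nearer than Itgam, and 207 and 380 lay nearer than Ptprc and Aif1.

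From Ptprc, 353 genes were nearer than Aif1, 998 nearer than Cd68 and 3931 nearer than Itgam. From Aif1, 667 genes (5.34%) were nearer than Ptprc and 8456 (67.7%) were nearer than Itgam, which rose much more. Of the 3 nearest genes of each marker, 1 was shared, ENSRNOG00000018371, which was at rank 3 for Cd68 and at rank 2 for Itgam. It had 13, 20 and 15 counts in NoOp and 329, 250 and 119 counts in SNx, and its log2 fold change of 3.76 had a limma adjusted p of 0.00463. The nearest gene to Aif1 was ENSRNOG00000028895, at 0.05, with 35, 33 and 29 counts in NoOp and 140, 147 and 91 counts in SNx. These 2 identifiers were picked after their values were seen, and all these distances share the same 6 libraries and are a description.

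Library titles carry numbers of a lower range (NoOp replicate 1 and SNx replicates 1 and 2) and of a higher range (NoOp replicates 2 and 3 and SNx replicate 3). What the numbers stand for is not given in the sources used here. Within the lower range the log2 difference between the groups was 4.002 for Itgam, 4.01 for Cd68, 2.78 for Ptprc and 1.75 for Aif1. In the lower range Itgam and Cd68 were thus nearly equal, with Cd68 slightly the higher. Within the higher range it was 3.59, 2.52, 1.82 and 1.75 in the same order. All 4 genes were higher in SNx within each range, which had to be so because the groups did not overlap for any of them. The agreement in direction is therefore no separate check. The values within ranges rest on 3 libraries each and carry no test. Since SNx replicate 3 is the only SNx library of the higher range, this animal and the range cannot be told apart.

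The authors' normalized table, made with a library scaling of their own, served as a check on the same libraries. On its log2 CPM scale Ptprc went from 2.94 ± 0.40 in NoOp to 5.21 ± 0.31 in SNx, and Aif1 from 3.16 ± 0.26 to 5.07 ± 0.25 (SD, n = 3 each). Cd68 went from 1.18 ± 0.29 to 4.57 ± 0.70, and Itgam from -0.02 ± 0.35 to 4.08 ± 0.89 (SD, n = 3 each). The differences were 2.28, 1.91, 3.39 and 4.10 for Ptprc, Aif1, Cd68 and Itgam, which differed from the values from the counts by between -0.01 and 0.02.

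Across 15 other settings of the test all 4 genes stayed higher in SNx with an adjusted p under 0.05, and the order of their log2 fold changes stayed Itgam, Cd68, Ptprc, Aif1 in each of the 15. The highest adjusted p was that of Itgam without NoOp replicate 2, 0.0457. Without TMM factors, on library size only, which moves the median of all genes from 0.01 to 0.24, the log2 fold changes were 4.30, 3.62, 2.50 and 2.11 for Itgam, Cd68, Ptprc and Aif1.

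**Figure D4:**
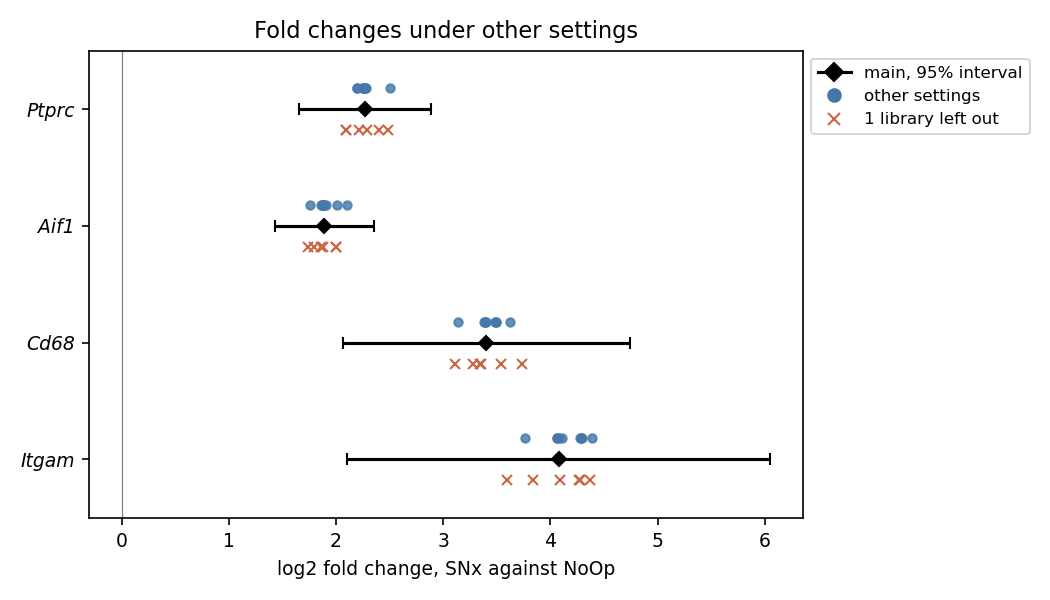
Log2 fold change of SNx against NoOp (horizontal axis) for the 4 genes, with the main value and its 95% interval (black diamonds), the 9 other settings that keep all 6 libraries (blue points) and the 6 that leave out 1 library (orange crosses). All values lie above 0 and inside the 95% interval of the main value.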

How the data were processed

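RNA of 6 rat kidneys (3 SNx, 3 NoOp, by the treatment label) was depleted of ribosomal RNA and sequenced in paired ends on strand-specific libraries. RNA integrity varied widely over the study's samples and was low at the lower end of its range, and it is not given per library. The authors deposited estimated counts per gene, whole numbers made by selective alignment (Salmon, per the submitters' processing notes) to a transcriptome of build rn6 and summarised with tximport, and a log2 CPM table made with voom. The study describes length-scaled estimates, and it was not settled if the deposited counts are of that kind. Versions, annotation release and gene filter are not given in the sources used here. The 12 single-library files held the same values as the 2 series tables.

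In R 4.3.3, filterByExpr (edgeR 4.0.16, minimum count 10, minimum total 15) selected the genes, TMM scaled the libraries, and voom with limma 3.58.1 fitted group as the single term, with two-sided tests and Benjamini-Hochberg adjustment over all 13644 genes at 0.05. Displayed log2 values used an offset of 0.5 counts and likeness a prior count of 2. DESeq2 1.42.0, the quasi-likelihood test of edgeR, other scalings and filters, sample weights, the deposited log2 table, a term for the range of library numbers and leaving out each library were alternatives. The tests were tested on simulated data. Replicates were numbered in order of deposition, and whether each library came from its own animal is taken from the study's methods. The number of libraries, 3 in each group, limits the precision.

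The 4 genes and all lists were chosen with earlier results of these data known. The names follow the rule that defined the genes. The naming rule covered these 4 genes in full, the genes most like them and 13 marker lists. Some of the lists are of leukocytes, of macrophages and of relatives of the 4 genes, and others are of further cell types and pathways. Of the identifiers, 0 matched a symbol in the reference table, and the study's own annotation was held only in part, for genes it had ranked as changed, so lists named through it would be selected by outcome. The lists were therefore not analysed here, and at most 2 further identifiers are given.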

Additional observations from a re-analysis of the deposited data

How the results depend on the processing

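The 4 log2 fold changes stayed positive and past the threshold in all 60 values from the 15 planned settings. Leaving out 1 library gave 3.11 to 3.73 for Cd68, 1.74 to 2.003 for Aif1, 3.598 to 4.37 for Itgam and 2.09 to 2.49 for Ptprc. Over the settings that kept all libraries, the ranges were 3.14 to 3.62, 1.75 to 2.11, 3.76 to 4.39 and 2.20 to 2.50 in the same order. The values within ranges of library numbers, added after seeing the data, moved by more than 1 SD between replicates for Cd68 (4.01 and 2.52, lower and higher range) and Ptprc (2.78 and 1.82), and the cause was not tested. The 48 values of the ratios between genes under other settings stayed within 1 SD of the main ones. Leaving out 1 library gave -2.40 to -1.78 for Aif1 over Itgam, 1.26 to 2.15 for Itgam over Ptprc, 1.26 to 1.76 for Cd68 over Aif1 and 0.762 to 1.33 for Cd68 over Ptprc. For the overlapping pairs it gave -1.01 to -0.50 (Cd68 over Itgam) and -0.74 to -0.11 (Aif1 over Ptprc). The number of genes called higher, 2620, was 1575 without NoOp replicate 2, 1497 without NoOp replicate 3, 3201 without SNx replicate 3 and 3387 on library size only, and the cause was not tested. Counts per marker list were not run, because the reference table matched none of the identifiers to symbols. No paired analysis was made, because by the study's methods the SNx and NoOp rats were separate animals. The standard error of the fitted change (log2) in Itgam went from 0.85 to 0.37 without SNx replicate 1, and that of Cd68 from 0.57 to 0.34 without SNx replicate 3.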
